A study of Mus musculus with 8 samples.

Results

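The genes described here are 46 interferon-stimulated and interferon pathway genes, chosen by name from the 25655 genes of a mouse muscle count table. They comprise 4 interferon receptor subunits, 8 interferon regulatory factors and STAT2, 7 genes of the IFIT and OAS families, 9 other antiviral effectors and genes of the ISG15 system, 8 GBP and IRG GTPases, 4 peptide transporters and chemokines, and 6 sensors and other interferon-induced genes. All 46 symbols matched a row of the table, and each had at least 1 read in some library. RNA came from the gastrocnemius, a calf muscle, of male wild-type mice sampled at day 4, and was sequenced from the 3′ ends of polyadenylated transcripts. The control group held 5 libraries from mice given 10% glycerol, and the sepsis group held 3 libraries from mice that received cecal slurry, that is, suspended gut content that seeds a mixed bacterial infection. No transgene, deletion or other agent was given for either group, and the sources used here give no age. The labels number the libraries within a group without saying that each came from a separate animal, so p-values measure the spread between these libraries.

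Interferons are secreted signals of infection that reach the nucleus through receptor-bound kinases and STAT proteins. Type I interferons act through IFNAR1 and IFNAR2 and, by way of a complex that holds STAT2 and IRF9, on a DNA element called the interferon-stimulated response element (ISRE). Interferon gamma acts through IFNGR1 and IFNGR2 and on the gamma-activated sequence (GAS). The induced genes restrict viruses, arm cells against intracellular bacteria and raise antigen presentation, and skeletal muscle fibres as well as the vessel and immune cells between them carry the receptors.

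The promoter letters of a few genes are shown because the ISRE and GAS are the elements through which the pathway acts. RefSeq promoter windows of build GRCm38.p6, each 300 bases long from 250 before to 50 after the annotated start, matched 38 of the 46 genes. The ISRE core was searched as GAAANNGAA on both strands and was found in 20 of the 38 genes (52.6%), against 9.76% of all 27025 genes of the table. The GAS was searched as TTCNNNGAA, which reads the same on both strands, and was found in 14 of the 38 (36.8%), against 9.55% of all genes. A match is a run of letters and not a mapped binding site. The genes printed hold an upstream ISRE core and either were called higher, with or without library sepsis 1, or belong to the IFIT family. Irf1 was added for its GAS match. Among genes with a window, the ISRE core was in 3 of 6 called higher. It was also in 6 of 12 tested but not called with or without sepsis 1. For the GAS these counts were 2 of 6 and 6 of 12. Each stretch printed here is 60 bases long, lies upstream of the start and has the match in capitals, which reads as the reverse complement where the ISRE core is on the other strand.
Gbp2, chr3:142620580-142620639, plus strand: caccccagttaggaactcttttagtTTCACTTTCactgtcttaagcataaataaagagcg
Gbp3, chr3:142559981-142560040, plus strand: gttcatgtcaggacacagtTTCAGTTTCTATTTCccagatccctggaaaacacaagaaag
Cxcl9, chr5:92328220-92328279, minus strand: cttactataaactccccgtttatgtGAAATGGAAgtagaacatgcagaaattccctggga
Rsad2, chr12:26456537-26456596, minus strand: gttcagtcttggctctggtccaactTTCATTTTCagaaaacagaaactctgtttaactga
Irf2, chr8:46739495-46739554, plus strand: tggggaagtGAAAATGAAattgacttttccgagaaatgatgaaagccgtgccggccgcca
Ifit1, chr19:34640780-34640839, plus strand: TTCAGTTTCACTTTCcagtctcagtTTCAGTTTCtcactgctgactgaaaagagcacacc
Ifit3, chr19:34583402-34583461, plus strand: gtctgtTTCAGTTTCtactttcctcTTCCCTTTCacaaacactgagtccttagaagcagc
Ifit3b, chr19:34607798-34607857, plus strand: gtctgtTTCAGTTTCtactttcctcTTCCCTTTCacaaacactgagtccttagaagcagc
Irf1, chr11:53769899-53769958, plus strand, with a GAS match: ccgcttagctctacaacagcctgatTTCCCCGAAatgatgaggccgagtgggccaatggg
The Ifit1 stretch holds 3 ISRE cores and the Gbp3 stretch 2 that overlap. The stretches of Ifit3 and Ifit3b were identical at 60 of 60 bases, and these neighbouring genes are near copies of each other. In the Irf2 stretch the capitals mark the ISRE core, and a GAS match that follows it is in lower case.

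Total counts ran from 3086277 to 4016329 per library, so that 1 read was worth 0.210 to 0.362 CPM (reads per 1e6 of the library total, after TMM, a normalization on trimmed means of log ratios). Markers of muscle fibres were abundant in every library, with Ckm, the muscle creatine kinase, at 12152 to 15353 CPM in controls and 4166 to 5857 CPM in septic libraries. Of the 46 genes, 24 had enough reads for the edgeR quasi-likelihood test over all 9810 tested genes, and 22 did not. Of the 24, 6 (Ifit3, Stat2, Gbp2, Xaf1, Tap1 and Ifnar1) reached the read minimum only with the help of septic libraries. Sepsis changed much of the transcriptome: 25.2% of all tested genes were higher and 25.2% were lower at an adjusted p below 0.05.

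Among the 24 tested interferon genes, 7 rose in sepsis (Ifngr1, Irf1, Irf2, Irf3, Rsad2, Iigp1 and Gbp2), 2 fell (Ifngr2 and Ifit3b) and 15 did not pass the test. The share that rose was close to the 25.2% of all genes and the share that fell was below it. Their median log2 fold change was 0.39, against 0.01 over all tested genes. With library totals alone in place of TMM scaling the median of all genes moved to 0.43, and the split among the interferon genes moved to 12 higher and 1 lower. In 3 of the 24 (Irf2, Irf3 and Ifngr1) all septic values lay above all control values, as in 23.1% of all genes, and in 1 (Ifngr2) all lay below, as in 24.3%. The septic libraries differed among themselves: Gbp2, Gbp3, Cxcl9, Oasl2 and Ifi44 lay within or below the control range in sepsis 1 and several-fold above the control mean in sepsis 2 and sepsis 3. Without sepsis 1, 14 genes were higher and 1 was lower out of 32 tested, beside 22.8% and 22.9% of all 10216 genes then tested. All 7 genes called with every library were among the 14. The other 7 were Oasl2, Ifi44, Ifi47, Gbp3, Cxcl9, Ifnar2 and Samhd1. The first 5 of these passed the read minimum only with the help of septic libraries. That route favours genes that are higher there, so their calls are not separate evidence of a rise. In all, 13 of the 32 passed that way, among them genes without a call such as Irf5, and Gbp2 did so with every library.

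The interferon gamma receptor chains moved in opposite directions. Ifngr1, which encodes the ligand-binding chain, had 15.3, 15.1, 17.8, 21.7 and 17.2 CPM in controls 1 to 5 and 26.1, 33.4 and 39.7 CPM in sepsis 1 to 3. Every septic value was above every control value, a 1.91-fold rise (log2 fold change 0.93, SE 0.18, edgeR adjusted p = 0.000703). Ifngr2, the chain that brings in JAK2, had 31.9, 36.7, 46.7, 34 and 36.6 CPM in controls and 9.31, 13.9 and 8.90 CPM in septic libraries. It was 3.45-fold lower with no overlap (log2 fold change -1.79, SE 0.20, edgeR adjusted p = 8.97e-06). Sepsis 1 kept to the pattern of the other septic libraries for both chains.

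The type I receptor chains changed less. Ifnar2 had 10.3, 13.8, 9.64, 7.23 and 7.97 CPM in controls and 9.57, 16.6 and 15.3 CPM in sepsis 1 to 3. Sepsis 1 lay within the control range and the other septic libraries above it, and the difference did not pass the test (log2 fold change 0.50, SE 0.24, edgeR adjusted p = 0.105). Without sepsis 1 it passed, with a log2 fold change of 0.69 (edgeR adjusted p = 0.032). Ifnar1 had 1.51 to 3.82 CPM in controls with a median of 2.51, and 2.66, 3.57 and 5.02 CPM in septic libraries (log2 fold change 0.59, SE 0.37, edgeR adjusted p = 0.2). In bulk tissue, fewer cells of a type and less RNA per cell cannot be told apart, for these genes or any other described here.

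**Figure D1:**
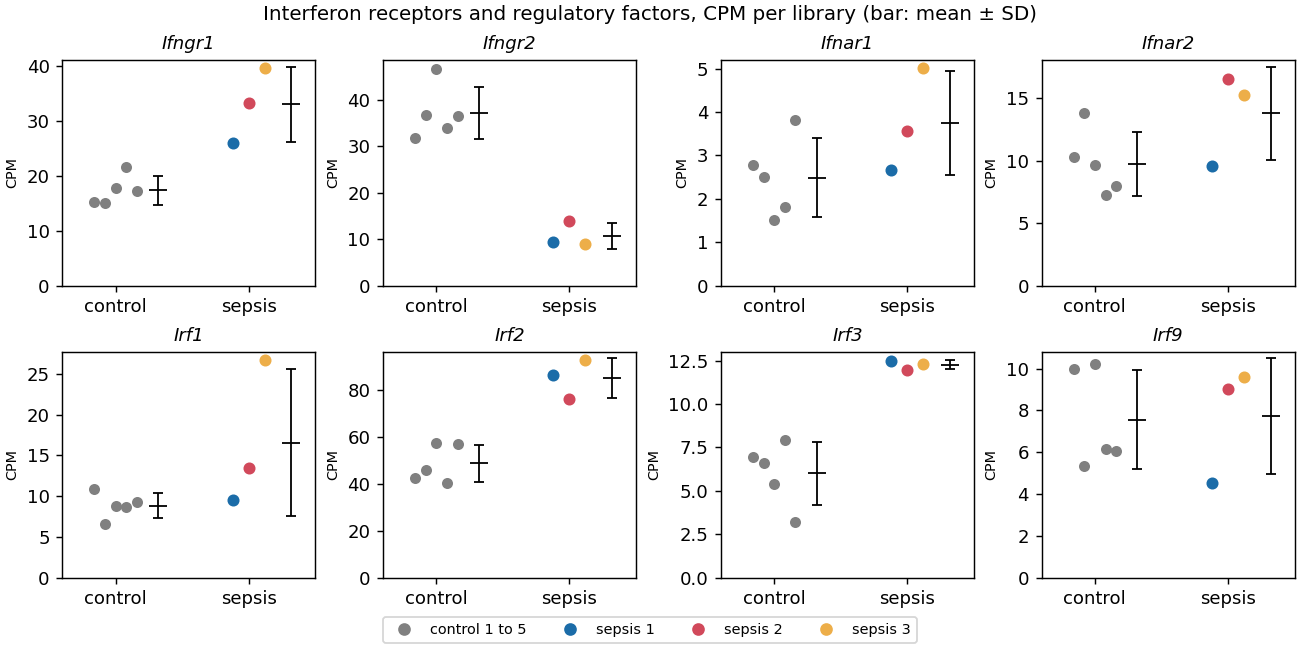
CPM on linear axes in each library for 4 interferon receptor subunits and 4 regulatory factors, with 5 control points in grey, 3 septic points in colour and black bars for mean ± SD. Ifngr1, Irf2 and Irf3 lie above the controls and Ifngr2 below them in all 3 septic libraries, while Irf1 in sepsis 1 (9.57 CPM) lies among the controls.

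Of the interferon regulatory factors, 3 rose. Irf2, a factor that competes with IRF1 at the ISRE, had 42.7, 46.1, 57.5, 40.5 and 57.0 CPM in controls and 86.4, 76.3 and 93.1 CPM in septic libraries. The groups did not overlap (log2 fold change 0.80, SE 0.14, edgeR adjusted p = 0.000425). Irf3, the factor that switches on interferon genes after nucleic acid sensing, had 6.94, 6.59, 5.42, 7.96 and 3.19 CPM in controls. Its septic values of 12.5, 12 and 12.3 CPM were all above the controls and close to each other, a 2.04-fold rise (log2 fold change 1.03, SE 0.25, edgeR adjusted p = 0.00358). Irf1, a factor induced by interferon gamma and carrying the GAS match shown in its promoter, had 10.8, 6.59, 8.73, 8.68 and 9.24 CPM in controls and 9.57, 13.4 and 26.7 CPM in sepsis 1 to 3. Sepsis 1 was among the controls and sepsis 3 stood highest, so that the call (log2 fold change 0.91, SE 0.30, edgeR adjusted p = 0.0214) was lost without sepsis 3 (log2 fold change 0.39, edgeR adjusted p = 0.206) and without control 2 (0.82, edgeR adjusted p = 0.0532).

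The remaining factors did not pass the test. Irf8, a factor of myeloid cells, had 5.72 to 10.5 CPM in controls and 5.67 to 6.16 CPM in sepsis (log2 fold change -0.37, SE 0.25). Irf9 and Stat2, which belong to the complex that carries the type I signal, had log2 fold changes of 0.03 (SE 0.30) and -0.09 (SE 0.48). Irf9 stood at 4.52 CPM in sepsis 1, below every control, and at 9.03 and 9.59 CPM in sepsis 2 and 3, within the control range of 5.34 to 10.2. Irf5 and Irf7, the latter a driver of type I interferon production, had too few reads: Irf7 had 15 control reads and 26 septic reads.

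The GBP and IRG GTPases, which attack the vacuoles of intracellular microbes, held the steepest rise of the tested interferon genes and also several genes with no call. Gbp2 had 3.61, 1.88, 2.41, 1.81 and 3.50 CPM in controls and 2.13, 18.9 and 20.3 CPM in sepsis 1 to 3. Sepsis 1 sat among the controls and the other septic libraries far above them, giving a 5.17-fold higher estimate (log2 fold change 2.37, SE 0.60, edgeR adjusted p = 0.00855) that became 7.23-fold without sepsis 1. Iigp1 had 11.7, 4.39, 10.2, 6.15 and 8.28 CPM in controls and 8.51, 24.6 and 13.7 CPM in sepsis. Sepsis 1 again lay inside the control range, and the call was narrow (log2 fold change 0.94, SE 0.36, edgeR adjusted p = 0.0464). It was lost without sepsis 2 (edgeR adjusted p = 0.286), without sepsis 3 (0.0678), and without control 2, 3, 4 or 5 (0.0551 to 0.0912). Gbp3 had 1.94, 1.26, 2.11, 0.362 and 0 CPM in controls and 1.60, 5.67 and 6.62 CPM in sepsis, from 19 and 62 reads in all. It was untested with every library and reached a log2 fold change of 2.35 without sepsis 1 (SE 0.56, edgeR adjusted p = 0.00468). Gbp3 then passed the read minimum only with the help of septic libraries, so that call is not separate evidence of a rise. Ifi47 had 0 to 1.39 CPM in controls and 2.13, 2.52 and 4.34 CPM in sepsis. It was the only untested gene of the 46 whose septic values all lay above the controls.

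Gbp7, Igtp, Irgm2 and Irgm1 gave no call. Gbp7 had 22 to 31.9 CPM in controls and 12.5, 29.0 and 24.9 CPM in sepsis (log2 fold change -0.32, SE 0.24, edgeR adjusted p = 0.289). Igtp had 2.55 to 6.11 CPM in controls and 1.06, 5.04 and 1.83 CPM in sepsis, and Irgm2 had 5.42 to 13.9 CPM in controls and 4.52, 8.19 and 5.48 CPM in sepsis. Without sepsis 2 both were called lower, at log2 fold changes of -1.64 for Igtp (edgeR adjusted p = 0.0105) and -1 for Irgm2 (edgeR adjusted p = 0.0307), and without control 4 Irgm2 was called lower too (-0.86, edgeR adjusted p = 0.0246). The GBP and IRG genes have close copies in the genome, and reads may be split between them by a counting method that is not known here.

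Antiviral effectors were led by Rsad2, which encodes viperin, an enzyme that makes chain-terminating nucleotides. Rsad2 had 6.66, 6.91, 5.42, 2.89 and 4.46 CPM in controls and 6.65, 18.3 and 12.6 CPM in sepsis 1 to 3. Sepsis 1 was within the control range and the others above it, a 2.36-fold rise (log2 fold change 1.24, SE 0.33, edgeR adjusted p = 0.00664). Samhd1, a nucleotide hydrolase, had 14.5 to 21.4 CPM in controls and 12.5, 27.5 and 27.2 CPM in sepsis. Sepsis 1 fell below every control, and the difference passed only without it (log2 fold change 0.59, SE 0.19, edgeR adjusted p = 0.0253, against 0.32 and 0.304 with it). Adar, an editor of double-stranded RNA, had 1.11, 0.628, 1.51, 1.81 and 1.91 CPM in controls, no read in sepsis 1, and 2.31 and 3.65 CPM in sepsis 2 and 3. Isg15, the ubiquitin-like modifier, had 0.602 to 2.23 CPM in controls and 0.266, 1.68 and 3.20 CPM in sepsis, and Usp18, which removes it, had 15 control reads and 8 septic reads. Bst2, which tethers budding viruses, had 0.362 to 2.11 CPM in controls and 2.39, 1.47 and 2.28 CPM in sepsis, and Cmpk2 had 0.555 to 1.88 CPM in controls and 1.60, 1.47 and 0.685 CPM in sepsis. Mx1 had 1 read in all and Mx2 had 4, so neither could be compared. A sum of 0 reads over the septic libraries, as for Mx1, still allows up to 3 reads.

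The IFIT and OAS families bind foreign RNA or make the signal that activates RNA decay. Ifit3b was called lower, with 5.27, 5.34, 1.51, 3.25 and 1.91 CPM in controls and 1.60, 1.68 and 1.14 CPM in sepsis (log2 fold change -1.22, SE 0.48, edgeR adjusted p = 0.0498). The groups overlapped, and the call was lost in 7 of the 11 alternative analyses that could test the gene, among them DESeq2 (adjusted p = 0.0645) and the removal of any 1 septic library (edgeR adjusted p = 0.0796 to 0.136). Without control 1, 2 or 4 it missed the read minimum. Its near copy Ifit3, with the same letters in the 60 bases printed, had 4.44, 2.82, 1.20, 1.45 and 0.956 CPM in controls and 0.532, 5.04 and 5.25 CPM in sepsis. The Ifit3 values of sepsis 2 and 3 lay above every control and that of sepsis 1 below, and the difference did not pass the test (log2 fold change 0.73, SE 0.61, edgeR adjusted p = 0.344). How reads were divided between these copies is not known, so the values of each are uncertain. Oasl2 had 1.39, 0.942, 0.602, 0 and 0.319 CPM in controls and 0.266, 3.57 and 5.02 CPM in sepsis, from 11 and 40 reads, and without sepsis 1 its log2 fold change was 2.59 (SE 0.58, edgeR adjusted p = 0.00312). That call is not separate evidence of a rise, because Oasl2 then passed the read minimum only with the help of septic libraries. Ifit1 and Ifit2 each had 10 control reads, with 24 and 21 septic reads, and Oas1a and Oas2 had 5 to 8 reads in each group.

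The chemokines and peptide transporters were also lowest in sepsis 1 among the septic libraries. Cxcl9, an interferon gamma-induced chemokine that draws T cells, had 1.11, 0, 1.81, 1.08 and 0.956 CPM in controls and 1.60, 12.4 and 8.45 CPM in sepsis 1 to 3. Sepsis 1 lay within the control range. The gene missed the read minimum because only 2 libraries reached it. With no filter on low counts it had a log2 fold change of 2.91 (edgeR adjusted p = 0.00611), and without sepsis 1 it was 10.1-fold higher (SE 0.46 on the log2 scale, edgeR adjusted p = 0.000108). Without sepsis 1, Cxcl9 passed the read minimum only with the help of septic libraries, so that call is not separate evidence of a rise. Cxcl10, a related chemokine, had 3 control reads and 14 septic reads, 1 of them in sepsis 1. Tap1 and Tap2 form the transporter that loads peptides onto class I molecules. Tap1 had 0.314 to 3.82 CPM in controls and 1.33, 4.83 and 4.11 CPM in sepsis (log2 fold change 1, SE 0.62, edgeR adjusted p = 0.201). Tap2 had 3.92 to 6.11 CPM in controls and 3.99, 6.72 and 8.68 CPM in sepsis (log2 fold change 0.46, SE 0.29, edgeR adjusted p = 0.202).

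Sensors and the remaining induced genes held no call with every library. Ifi44 had 0.555, 0.314, 0.602, 0.723 and 0.637 CPM in controls and 0.266, 3.57 and 3.20 CPM in sepsis. Sepsis 1 was below every control and the other septic libraries above all of them, and without sepsis 1 the log2 fold change was 2.51 (SE 0.49, edgeR adjusted p = 0.00119). That call is not separate evidence of a rise, because Ifi44 then passed the read minimum only with the help of septic libraries. Xaf1 had 1.45 to 3.14 CPM in controls and 0.798, 2.94 and 5.25 CPM in sepsis, and Rtp4 had 1.51 to 2.82 CPM in controls and 0.798, 2.94 and 4.79 CPM in sepsis. Ifih1, which encodes the RNA sensor MDA5, had a log2 fold change of -0.09 (SE 0.34), and Ifi35 one of 0.25 (SE 0.27). Zbp1, a sensor of left-handed nucleic acid, had 4 control reads and 6 septic reads.

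**Figure D2:**
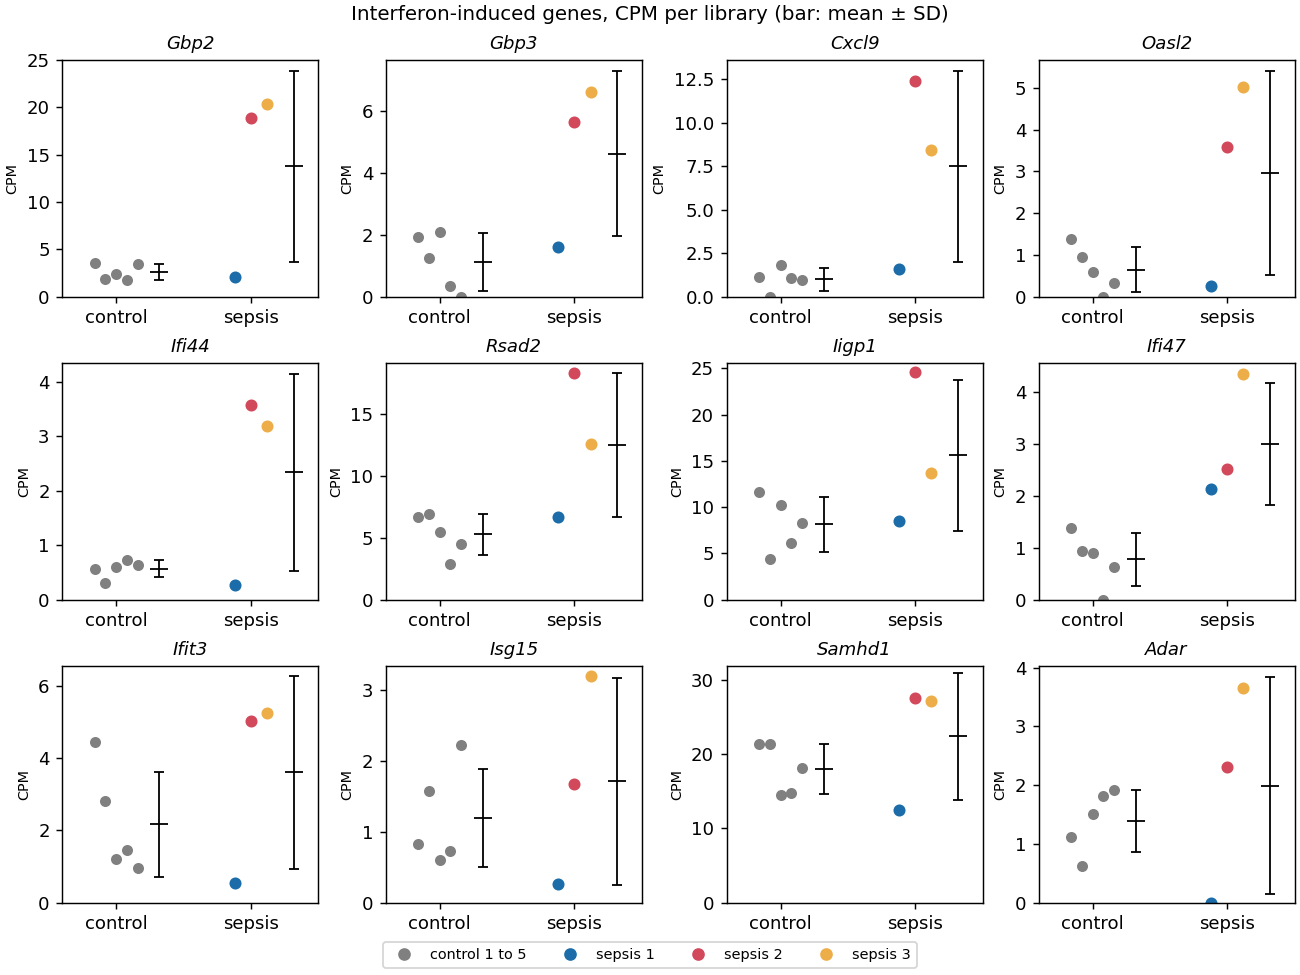
CPM on linear axes in each library for 12 interferon-induced genes, with 5 control points in grey, 3 septic points in colour and black bars for mean ± SD. Sepsis 1 lies within or below the control range for all of them but Ifi47, and sepsis 2 and 3 lie above every control for Gbp2, Gbp3, Cxcl9, Oasl2, Ifi44, Rsad2, Iigp1, Ifi47, Ifit3, Samhd1 and Adar. The 12 genes are a selection. Other induced genes are not drawn, some with this pattern, such as Tap1, and some without it, such as Gbp7.

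The 22 genes without a test had 1 to 118 reads over all libraries. In 20 of them the sepsis 1 value did not exceed the highest control, and 8 passed the read minimum once sepsis 1 was left out. With no filter, 16368 genes were fitted and 13 interferon genes were higher: the 7 called with the filter, together with Oasl2, Ifi44, Ifi47, Gbp3, Cxcl9 and Cxcl10. Ifngr2 alone was then lower. Over all genes the calls, higher and lower, were a smaller share of the genes fitted than with the filter. The interferon genes called higher only with no filter had 3 (Cxcl10) to 19 (Gbp3) control reads each. Isg15, Oasl2 and Ifi44 had 1 read each in sepsis 1 and Adar none.

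**Figure D3:**
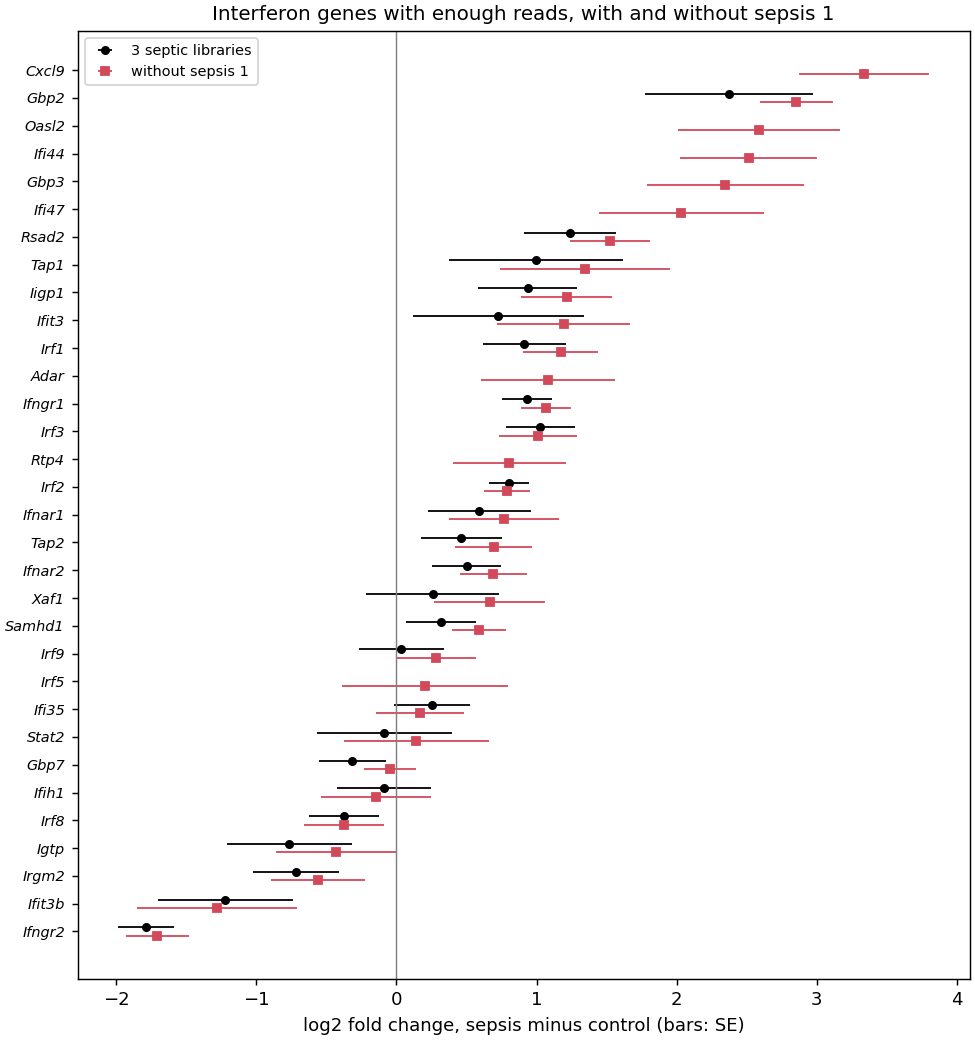
Log2 fold change of sepsis minus control on the horizontal axis, with bars of 1 SE, for the 32 interferon genes that could be tested without sepsis 1 (red squares) and, where tested, with all 3 septic libraries (black circles). Gbp2 moved from 2.37 to 2.85 when sepsis 1 was left out, while Irf2, Irf3 and Ifngr2 stayed within 0.1 of their first value.

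The spread among the septic libraries was wider at the median for the interferon genes than over all genes, and so was the spread among the controls. Sepsis 1 was the lowest of the 3 in 17 of the 24 tested genes (70.8%) and in 34 of all 46 (73.9%), against 29.5% of all tested genes. The highest septic library was at least 2-fold above the lowest in 13 of the 24 (54.2%), against 24.9% of all genes. The median SD of log2 CPM over the septic libraries was 0.479 for the 24 and 0.306 for all tested genes, and over the controls it was 0.401 and 0.227. The septic SD exceeded the control SD in 14 of the 24 (58.3%) and in 64.4% of all tested genes. These comparisons with all genes were not matched on read depth. Of the 24, 3 lay above all controls in sepsis 1, 12 in sepsis 2 and 14 in sepsis 3, while 8, 2 and 3 lay below all controls. Over all 9810 tested genes, 35.9%, 33.9% and 37.7% lay above all controls in sepsis 1 to 3. Below all controls lay 3554, 3264 and 3706 of them. The summed level of all 46 genes was 233 to 293 CPM in controls and 252, 401 and 413 CPM in sepsis 1 to 3.

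To describe the size of the gap, the reads of sepsis 2 and 3 together, scaled by library size, were set against those of sepsis 1. This split was chosen after the pattern was seen. The exact 95% intervals cover counting error only, which separate libraries usually exceed, and they describe these libraries and not the condition. The interval lay above 1 in 14 of the 24 tested genes, beside 13.8% of all tested genes, and below 1 in none, beside 17.6%. The ratio was 9.20 for Gbp2 (4.57 to 21.6), 6.58 for Cxcl9 (2.92 to 18.4), 3.84 for Gbp3 (1.66 to 10.9), 2.34 for Rsad2 (1.52 to 3.73) and 2.28 for Iigp1 (1.55 to 3.43). Irf2 and Irf3 had ratios of 0.976 (0.856 to 1.11) and 0.971 (0.685 to 1.40). The median difference from the control mean over the 24 tested interferon genes was -0.20 on the log2 scale in sepsis 1, 0.49 in sepsis 2 and 0.72 in sepsis 3. Over all tested genes the same medians were -0.0024, 0.022 and 0.0048. Over the 7 interferon genes called higher they were 0.36, 0.98 and 1.18, and over all genes called higher 0.93, 0.76 and 1.06, with calls that used these same libraries.

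Markers of other cell types differed between the septic libraries as well. The 10 pan-leukocyte markers, of which 7 were tested and 3 rose, summed to 16.9 to 56.6 CPM in controls and to 42.6, 113 and 61.2 CPM in sepsis 1 to 3. The 14 neutrophil markers, of which 4 were tested and 4 rose, summed to 1.20 to 4.46 CPM in controls and 74.5, 139 and 164 CPM in sepsis, with Mpo and Elane listed at 0 throughout. The 15 T and NK cell markers had too few reads to test and summed to 0 to 2.78 CPM in controls and 1.86, 11.1 and 4.34 CPM in sepsis, with Cd4 and Trac at 0 throughout and Cd3e at 0 in septic libraries. The 10 endothelial markers, all tested, with 5 that rose and 1 that fell, summed to 185 to 194 CPM in controls and 194, 263 and 300.4 CPM in sepsis. Sepsis 1 was thus the lowest septic library for these 4 lists. The 16 monocyte and macrophage markers, with 8 of 12 tested that rose, summed to 158 to 308 CPM in controls and 437, 650 and 398 CPM in sepsis, where sepsis 3 was lowest. Muscle fibre markers, with 9 of 10 that fell, summed to 161383 to 190495 CPM in controls and 96001, 69049 and 95898 CPM in sepsis. The part of these cell types in the level or spread of the interferon genes was not tested.

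**Figure D4:**
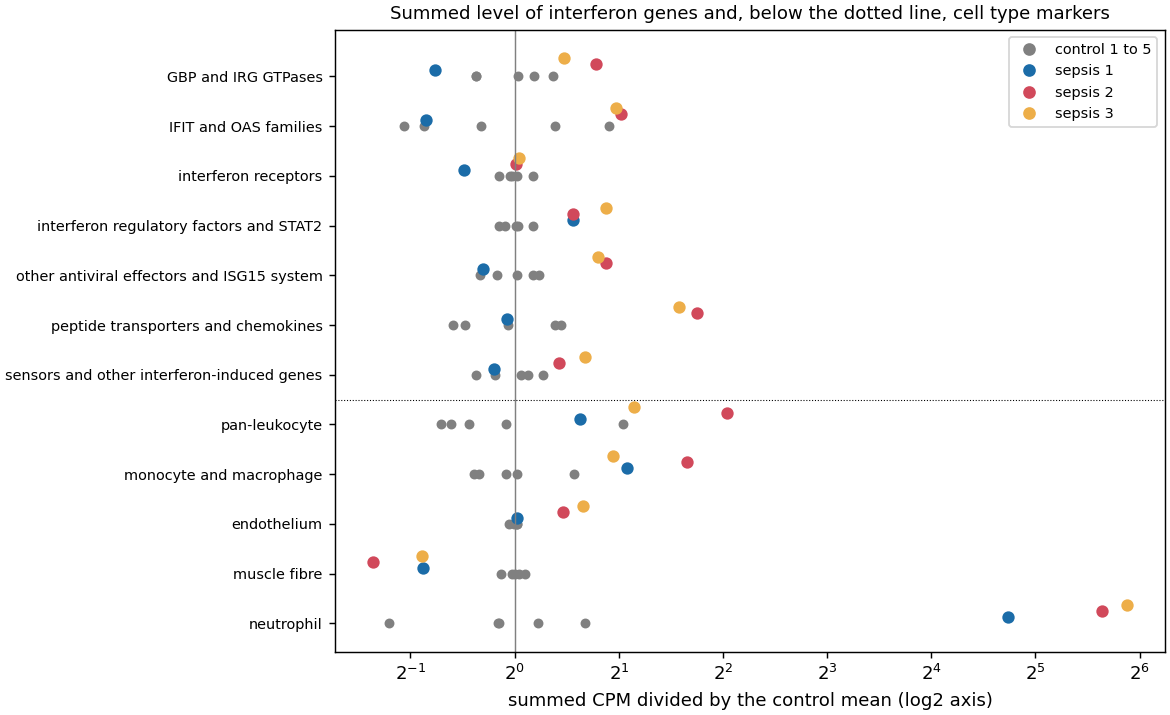
Summed CPM divided by the control mean, on a log2 axis, for the interferon genes grouped by role and for 5 lists of cell type markers, with controls in grey and each septic library in its own colour. Sepsis 1 lies within or below the range of the controls for every role but the regulatory factors, whose sum was 123 CPM in sepsis 1 and 75.6 to 94.9 CPM in controls.

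The rest of the pathway was followed through 7 lists of other genes, with 216 symbols, of which 210 matched a row and 121 were tested. Of these 121, 48 rose and 14 fell, beside 25.2% and 25.2% of all tested genes, and without sepsis 1 the counts were 56 and 12, beside 22.8% and 22.9%. These shares of all genes are the background for the count of each list. Interferon ligands were nearly unread: 19 of 21 had no read, and the others were Ifnb1 with 1 read in sepsis 2 and Ifnk with 1 read in control 4. Ifng had no read in any library, which allows up to 3 reads.

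Of 12 tested genes for kinases and other signalling partners, 3 rose and 4 fell, both shares near the 25.2% of all tested genes. Stat3, a STAT activated mainly by interleukin signals, had 57.0 to 70.0 CPM in controls and 148, 137 and 289 CPM in sepsis, above every control in each library (log2 fold change 1.60, SE 0.21, edgeR adjusted p = 9.12e-05). Jak2, the kinase of the IFNGR2 chain, fell (log2 fold change -0.67, SE 0.16, edgeR adjusted p = 0.00326) with 24.2 to 31.1 CPM in controls and 15.4 to 18.9 CPM in sepsis, but with library totals alone the difference was -0.25 and did not pass. Jak1 and Tyk2 had log2 fold changes of 0.01 (SE 0.12) and 0.15 (SE 0.28). With library totals alone none of the 12 was lower, and without sepsis 1 or 2, or control 2, 3 or 4, the number that fell was 2.

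Of 13 tested negative regulators, 6 rose and 1 fell. Socs3, an inhibitor of receptor-bound kinases, had 3.01 to 6.38 CPM in controls and 17.8, 7.56 and 7.08 CPM in sepsis (log2 fold change 1.27, SE 0.35, edgeR adjusted p = 0.0089). Sepsis 1 was the highest here, while of the 46 interferon genes 34 were lowest and 4 highest in that library. Without sepsis 1 the Socs3 call was lost (log2 fold change 0.72, edgeR adjusted p = 0.0764). Ptpn2, a phosphatase of the receptor-bound kinases, had 9.04 to 12.3 CPM in controls and 35.9, 20.6 and 41.6 CPM in sepsis (log2 fold change 1.55, SE 0.22). Pias4, an inhibitor of STAT activity, had 10.8 to 14.8 CPM in controls and 38.8, 26 and 35.2 CPM in sepsis (log2 fold change 1.37, SE 0.17). Socs1, the classical inhibitor of interferon gamma signalling, had 11 control reads and 6 septic reads.

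Of 22 tested genes for nucleic acid sensing and Toll-like receptor signalling upstream of interferon, 7 rose, a share near the 25.2% of all tested genes. In that list 1 fell, though not without control 4. Irak1, a kinase downstream of Toll-like receptors, had 23.8 to 30.8 CPM in controls and 59.3, 45.8 and 66.2 CPM in sepsis (log2 fold change 1.06, SE 0.15). Tbk1, the kinase that activates IRF3, had 4.44 to 7.83 CPM in controls and 17.3, 11.1 and 15.5 CPM in sepsis (log2 fold change 1.26, SE 0.23). Trex1, a nuclease that clears cytosolic DNA, had 3.62 to 9.88 CPM in controls and 18.4, 19.1 and 15.1 CPM in sepsis (log2 fold change 1.49, SE 0.25). All 3 were above every control in each septic library, sepsis 1 included. They were named for the smallest p in a fit that used sepsis 1, which favours genes raised there. Sting1 had 1.45 to 3.19 CPM in controls and 4.26, 5.46 and 3.42 CPM in sepsis and did not pass the test (log2 fold change 0.75, SE 0.33, edgeR adjusted p = 0.0767), and it passed with library totals alone (1.17, edgeR adjusted p = 0.0103). With library totals alone 14 of the 22 were higher and none lower.

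Of 22 tested interferon gamma targets in antigen presentation, 9 rose and 5 fell. H2-Q7, a nonclassical class I gene with close copies, had 1.27 to 2.53 CPM in controls and 7.98, 13.0 and 13.9 CPM in sepsis (log2 fold change 2.53, SE 0.29, edgeR adjusted p = 1.27e-05). B2m, the light chain of class I, rose by 0.56 on the log2 scale (SE 0.13, edgeR adjusted p = 0.00271). Psmb8, an immunoproteasome subunit, had 6.51 to 8.79 CPM in controls and 7.98, 15.3 and 18.9 CPM in sepsis (log2 fold change 0.92, SE 0.26). Sepsis 1 was among the controls, and the call was lost without sepsis 3 (edgeR adjusted p = 0.0569). Its partner Psmb9 did not pass (0.27, SE 0.31). Icam1, an adhesion molecule, had 0 to 1.51 CPM in controls and 16.5, 14.1 and 37.9 CPM in sepsis (log2 fold change 4.76, SE 0.50). The 5 that fell, named after their values were seen, were Serping1, an inhibitor of complement, and the class II genes H2-Aa, H2-Ab1, H2-Eb1 and Cd74. H2-Aa had 18.1 to 39.1 CPM in controls and 4.26, 4.83 and 2.74 CPM in sepsis (log2 fold change -2.71, SE 0.32, edgeR adjusted p = 1.94e-05).

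Of 8 tested other GBP and IRG GTPases, 2 rose and 2 fell. Gbp9 had 1.08 to 2.87 CPM in controls and 4.79, 8.61 and 7.99 CPM in sepsis (log2 fold change 1.63, SE 0.32), and Gbp4, named after its values were seen, had 0.903 to 2.78 CPM in controls and 2.66, 6.51 and 14.8 CPM in sepsis (2.10, SE 0.52). F830016B08Rik, an IRG-like gene, had 88.6 to 211 CPM in controls and 4.26, 8.61 and 3.42 CPM in sepsis (log2 fold change -4.55, SE 0.40, edgeR adjusted p = 1.41e-05). Gm4841, another such gene, had 11.6 to 41.1 CPM in controls and 0, 1.47 and 0.685 CPM in sepsis (log2 fold change -4.61, SE 0.72).

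Of 45 other tested interferon-induced genes, 22 rose and 1 fell, with 2 that fell without sepsis 1 or without sepsis 2. Trafd1, a brake on Toll-like receptor signalling, had 24.8 to 37.2 CPM in controls and 166, 130 and 259 CPM in sepsis (log2 fold change 2.71, SE 0.21, edgeR adjusted p = 1.39e-06). Ifi30, a lysosomal thiol reductase, had 3.77 to 9.16 CPM in controls and 42.8, 29.6 and 24.7 CPM in sepsis (log2 fold change 2.31, SE 0.25), and Nub1, a regulator of the ubiquitin-like NEDD8, had 26.4 to 38.9 CPM in controls and 96.8, 62.4 and 120.3 CPM in sepsis (log2 fold change 1.42, SE 0.19). Ifitm3, which blocks virus entry at membranes, had 43.7 to 65.2 CPM in controls and 79.8, 124 and 133 CPM in sepsis (log2 fold change 1.07, SE 0.17). All 4 lay above every control in sepsis 1, as did 95.1% of all genes called higher. Trafd1, Ifi30 and Nub1 were named for the smallest p in a fit that used sepsis 1, which favours genes raised there. Eif2ak2, the RNA-activated kinase PKR, had too few reads, with 34 control reads and 26 septic reads.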

How the data were processed

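Whole-number read counts per gene, raw and unpooled, 1 column per library, were deposited by the authors and were the only values used. Per the labels' protocols, 25 ng of total RNA entered QuantSeq 3′ mRNA libraries, so counts were not divided by length. The submitters' processing notes name build GRCm39. Aligner, counter, strand setting and annotation: not given in the sources used here. Of the 25655 genes, 9287 had no read. Reads carry no stated molecular identifier, so counting intervals cover counting error only.

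Counts were tested with edgeR 4.0.16 in R 4.3.3: expression filter with minimum count 10 and minimum total 15, TMM scaling, robust quasi-likelihood F test of sepsis against control over all 8 libraries, and Benjamini-Hochberg adjustment over 9810 genes, with 0.05 as threshold. The SE is the absolute log2 fold change divided by the square root of F. Log2 CPM used a prior count of 2. Alternatives were other scalings, DESeq2 1.42.0, no filter, a replicate block and leaving out each library. The test was also run on simulated counts with the spread of the controls alone and few changed genes. These data differ in both, so that run does not show how the test performs here.

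The 46 genes, the pathway lists and the markers were chosen with earlier results of these data known. Any of the 46 could be named; of each pathway list, up to 3 genes with the smallest p and a fixed set of key genes. RefSeq promoters of GRCm38.p6 were matched by symbol. The values of 1 gene of the pathway lists are not reported here.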

Additional observations from a re-analysis of the deposited data

Results flagged for a closer look

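In groups of this size a value far from the others is marked about as often as 1 group in 20 by chance, and 2 control values were marked among the interferon genes. Mx1 had 0.278 CPM in control 1, which is 1 read, and 0 in the other controls. Ifi35 had 6.05 CPM in control 5 and 3.61 to 4.22 CPM in the other controls. Septic groups of 3 were not examined this way.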

How the results depend on the processing

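Over 329 recomputed values of tested interferon genes, 298 stayed on the same side of the threshold. The sign changed in 16 values of 6 genes that never passed it (Irf8, Irf9, Stat2, Ifih1, Gbp7 and Xaf1), among them Irf8, Stat2, Ifih1 and Gbp7 with library totals alone, at 0.04, 0.33, 0.33 and 0.12. Irf2, Irf3, Ifngr1 and Ifngr2 kept their calls in all 14 alternatives. Against 7 interferon genes higher and 2 lower, library totals alone gave 12 and 1, no filter 13 and 1, and DESeq2 7 and 1. The number higher ran from 5 to 14 and the number lower from 1 to 3 when 1 library was left out, with 14 reached without sepsis 1. Deviations of libraries with the same replicate number in both groups correlated at -0.124, 0.0409 and -0.0196, and those of other pairs reached 0.129. So few pairs cannot show whether the numbers mark a pairing. A replicate block gave 3 higher and 1 lower, with Gbp2 at an edgeR adjusted p of 0.0856, Rsad2 at 0.0588 and Irf1 at 0.0892. Counts without overlap between the groups were 3 higher and 1 lower, 6 higher with library totals alone, and ran from 3 to 19 higher (19 without sepsis 1) and from 1 to 2 lower with 1 library left out. Fewer septic libraries make such separation easier for any gene. Without sepsis 1, 13 of the 32 tested genes passed the read minimum only with the help of septic libraries. The shares of all genes with library totals alone or a library left out are not given here. For pathway genes, library totals alone gave 7 lower against 14. The cause of these shifts was not tested, apart from the change in which genes could be tested. The median log2 fold change ran from 0.19 without sepsis 3 to 0.82 with library totals alone. With library totals alone sepsis 1 was the lowest septic library in 20 of the tested interferon genes, against 17. Depth limits the 22 untested genes.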

Other observations

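Satellite cell markers, not described above, had 2 of 5 genes tested and both rose, with summed levels of 20.1 to 43.8 CPM in controls and 82.2, 64.5 and 194 CPM in sepsis 1 to 3. The 10 fibro-adipogenic and matrix markers had 9 tested and all 9 fell, from 1959 to 3430.1 CPM in controls to 494, 661 and 662 CPM in sepsis. By chi-square per degree of freedom over the 46 interferon genes, control pairs differed by 1.32 to 2.47, sepsis 2 and 3 by 3.09, and sepsis 1 by 9.47 from sepsis 2 and by 8.68 from sepsis 3. Over all genes the last 3 values were 26.3, 11 and 15.8, so that sepsis 2 and 3 were the septic pair that differed most over the transcriptome and least over the interferon genes.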
